A study of Mus musculus with 2 samples.

Results

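The genes described here are 10 genes through which the exocrine pancreas receives a secretory stimulus and answers it with calcium and fluid. They are 5 receptors (Cckar, Chrm1, Chrm3, Sctr and Vipr1), 3 genes of calcium release and entry (Itpr2, Itpr3 and Orai1) and 2 aquaporins (Aqp8 and Aqp12). They were chosen by function, but with earlier results of these data known. The shares of all genes set beside them below are therefore no unbiased contrast. On the array the 10 genes were found as the non-control probes whose RefSeq accession belongs to one of them. This gave 16 probes for the 10 genes, out of 22911 genes named on the array, and all 10 genes had at least 1 probe well above background on both arrays, where 56.7% of all named genes did. None was detected on 1 array only, which held for 12.4% of named genes on Nrdc-cKO and 0.873% on WT.

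Total RNA of whole pancreas was labelled with Cy3 and hybridised to 1-colour Agilent mouse arrays, with 1 array for a WT male and 1 for an Nrdc-cKO male, both C57BL/6 and aged 5 weeks. Nrdc encodes nardilysin, a metalloendopeptidase, and the Nrdc-cKO group carries Ptf1a-Cre and Nrdc flox/flox alleles. Ptf1a is active in pancreatic progenitors and in acinar cells, so Cre can have acted in acinar, duct and islet cells, while stroma, vessels, nerves, fat and immune cells keep the gene. The labels do not say whether the WT animal carried Cre or floxed alleles, nor whether RNA of several animals was pooled. The study asked what nardilysin does in the exocrine gland.

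Stimulation of the acinar cell runs through receptors coupled to G proteins. Cholecystokinin and acetylcholine act through Gq and phospholipase C, which makes inositol trisphosphate, opens calcium stores of the endoplasmic reticulum and so starts granule exocytosis and chloride secretion. Secretin and vasoactive intestinal peptide act through Gs and cyclic AMP, in acinar cells and, for secretin above all, in duct cells. Water follows the ions, in part through aquaporins of the acinar membrane.

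Per the file headers, the slide and the scan were common to both arrays. Detected spots made up 46.3% of the non-control spots for WT and 60.3% for Nrdc-cKO, and the 75th percentile of the processed signal was 70.8 and 227, respectively. The tissue label held, since all 17 acinar markers were well above background on both arrays. The only probe of Nrdc had a signal of 270 on WT and 93.9 on Nrdc-cKO, a log2 difference of -3.21 after scaling. Whether that probe lies in the deleted part is not given by the labels. With 1 array per group the spread between animals is unknown, and no difference was tested. The error given below is the scanner software's own estimate for a spot, which is 0.20 on the log2 scale for the difference of a bright probe, and repeat spots of the same probe gave a median SD of 0.032 for it. Neither covers the animal, the dissection or the labelling.

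Levels below are log2 processed signals minus the array's 75th percentile, differences are Nrdc-cKO minus WT, and 2-fold is a log2 difference of 1. Of the 10 genes, 4 were lower by 2-fold or more in Nrdc-cKO (Aqp12, Vipr1, Chrm3 and Cckar), as were 17.3% of the 13001 genes measured on both arrays. A single one, Sctr, was higher by 2-fold or more, as were 12.8% of all measured genes. Both directions together gave 5 of 10, against 30.1% of all measured genes. The other 5 lay within 2-fold, with Itpr2 at -0.99 just short of the threshold and Sctr at 1.01 just past it. At 4-fold, 2 were lower, Aqp12 and Vipr1, against 3.0% of all measured genes. The median of the 10 was -0.62, and that of all measured genes -0.18.

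**Figure D1:**
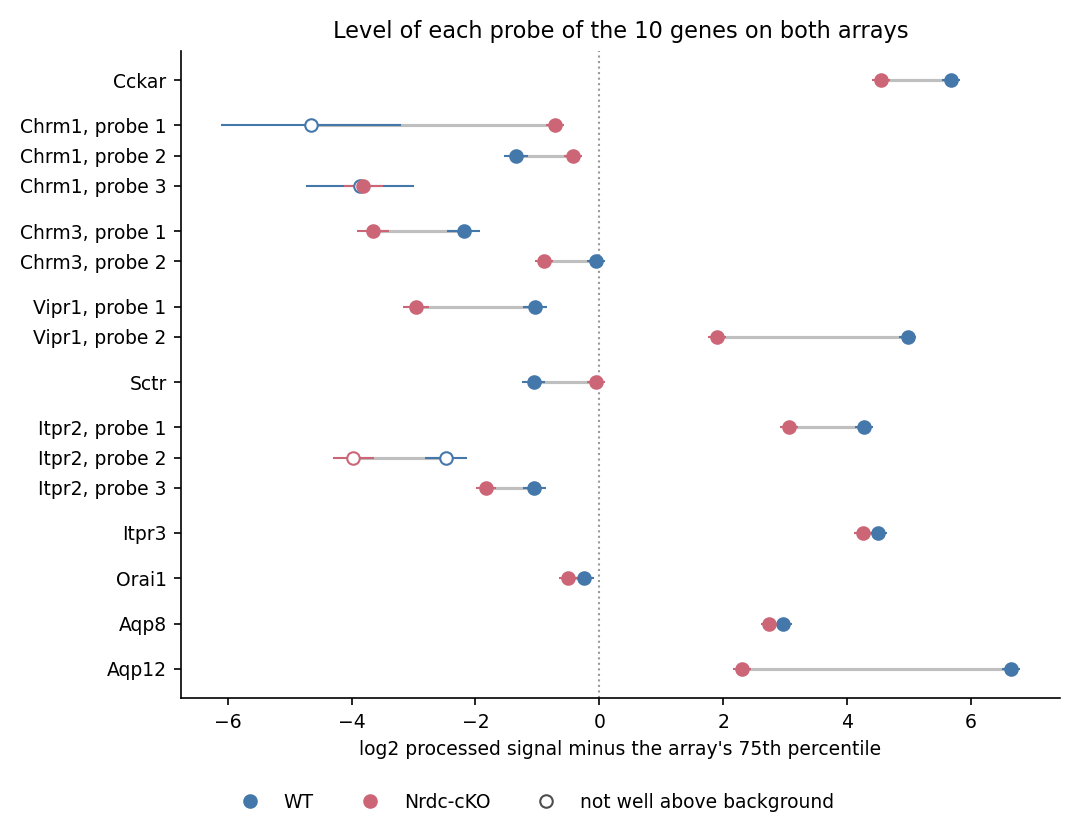
Level of each of the 16 probes on the WT and the Nrdc-cKO array, as log2 processed signal minus the array's 75th percentile, with bars for the scanner software's error estimate (1 SD) of the spot. Of the probes well above background on both arrays, Aqp12 (6.65 and 2.30) and the brighter Vipr1 probe (4.98 and 1.90) are farthest apart. A Chrm1 probe not well above background on WT lies at -4.66 and -0.72. Open circles are spots not well above background, and levels of different probes cannot be set against each other.

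The scaling decides much of this picture. Before scaling, the signals were higher on the Nrdc-cKO array for 10 of the 13 member probes detected on both arrays. The other 3 were the probe of Aqp12 and both probes of Vipr1, which were lower in the signals as deposited. For the dimmer Vipr1 probe that unscaled log2 difference was -0.24, within its scanner error of 0.28. The log2 75th percentile stood 1.68 higher on the Nrdc-cKO array, and subtracting it puts below 0 every gene whose signal was higher by less than that. With no scaling 5 of the 10 genes were higher by 2-fold or more and 1 lower, against 72.6% and 1.11% of all measured genes. With spike-in scaling the counts were again 5 and 1, against 79.8% and 0.885%. In the authors' deposited value table they were 2 and 2, against 22.2% and 8.26%. With quantile scaling they were 0 and 3 (13.8% and 14.8%), and with loess 1 and 3 (15.2% and 13.1%). Higher and lower are used here in relation to the other probes of an array. The share of all measured genes that had a lower difference is given beside them, since it does not move when a constant is added to an array.

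Among the receptors, Vipr1 differed most. It encodes the receptor VPAC1 for vasoactive intestinal peptide, which signals through Gs. Its brighter probe had a signal of 2229 on WT and 850 on Nrdc-cKO, and its dimmer probe 34.5 and 29.2. The log2 differences were -3.08 and -1.92, each larger than its scanner error (0.20 and 0.28), and both probes were lower on the Nrdc-cKO array. The gene value was -2.50 (5.65-fold lower), and 1.44% of all measured genes had a lower difference. Among the 2441 genes whose mean level lay within 0.5 of that of Vipr1, this share was 1.02%. The probes are annotated to the same transcript, and their differences lie 1.15 apart, so the probes gave the same direction and different sizes. With spike-in scaling the gene value was -0.60, within 2-fold.

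Cckar encodes the cholecystokinin receptor of rodent acinar cells, which couples to Gq. Its only probe had a signal of 3626 on WT and 5348 on Nrdc-cKO. Its level was 5.68 and 4.56, a difference of -1.12 (2.18-fold lower, scanner error 0.20). Of all measured genes, 14.3% had a lower difference, and of the 356 genes of like level, 22.5%. Cckar was thus lower relative to the array as a whole and less clearly so beside genes of its own brightness, whose median was -0.49. It came within 2-fold with loess (-0.61) and quantile scaling (-0.68), among others, and its direction turned with spike-in scaling (0.77).

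The muscarinic acetylcholine receptors Chrm3 and Chrm1, which take up the vagal signal through Gq, lay on opposite sides. Chrm3 had signals of 68.2 on WT and 123 on Nrdc-cKO at one probe and 15.5 and 18.0 at the other. The differences were -0.84 and -1.47, for a gene value of -1.15 (2.23-fold lower), and 13.6% of all measured genes had a lower difference. Both probes were lower after scaling, but both are dim, with scanner errors of 0.21 and 0.37. The brighter probe alone gave -0.84, within 2-fold, the deposited value table of the authors gave -0.66 for the gene, and spike-in scaling turned it to 0.74.

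For Chrm1, 1 of its 3 probes was well above background on both arrays, with a signal of 27.8 on WT and 169 on Nrdc-cKO. Its level was -1.35 and -0.43, a difference of 0.92 (1.89-fold higher, scanner error 0.25), and 86.1% of all measured genes had a lower difference. A further probe was not well above background on WT (signal 2.81) and reached 138 on Nrdc-cKO, which makes it at least 3.77-fold higher. This bound sets the level on Nrdc-cKO against the lowest level detected on WT, -2.63. The remaining probe read 4.88, not well above background, and 16.2, which allows no fold. No probe of Chrm1 had a level above the 75th percentile of either array.

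Sctr, the secretin receptor, which signals through Gs and is known best from duct cells, was the gene on the higher side of the threshold. Its only probe was dim on WT, with a signal of 33.9, and had a signal of 220.3 on Nrdc-cKO. Its level was -1.06 and -0.05, a difference of 1.01 (2.02-fold higher, scanner error 0.24), and 87.3% of all measured genes had a lower difference. Normexp background correction put it at 0.48 with the 75th percentile and 0.63 with quantile scaling, and quantile scaling without it at 0.99, all within 2-fold. Duct markers were at least 2-fold higher for 4 of 9 genes and lower for 1, with a median of 0.81. Their summed level was 37.3 times the 75th percentile on WT and 189 times on Nrdc-cKO, and all 9 were well above background on both arrays. Most of both sums came from Spp1 alone, with a level of 4.48 on WT and 7.36 on Nrdc-cKO. Krt19 differed by 0.25, and Cftr was the lower one (-1.59). The part of duct cells in the value of Sctr was not tested.

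The 3 genes of calcium release and entry all lay within 2-fold. Itpr2 and Itpr3 encode the inositol trisphosphate receptors that carry most calcium release in acinar cells of the mouse. Itpr2 had a signal of 1366 on WT and 1899 on Nrdc-cKO at its brightest probe, a difference of -1.21, and 34.2 and 64.2 at its next probe, a difference of -0.78. Its remaining probe was not well above background on either array. The gene value was -0.99 (1.99-fold lower), and 17.5% of all measured genes had a lower difference. With the brightest probe alone Itpr2 stood at -1.21, past 2-fold, and with spike-in scaling at 0.90.

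Itpr3, with 1 probe, had a signal of 1609 on WT and 4328 on Nrdc-cKO. The difference was -0.26 with a scanner error of 0.20, and 46.4% of all measured genes had a lower difference. Orai1, the pore of the channel through which calcium enters after the stores are emptied, had signals of 59.4 and 160.04 and a difference of -0.26 (scanner error 0.22), with 46.5% of genes below it. Both lay close to the middle of all measured genes, whose median was -0.18. Their direction was not stable, since both stood at 0.24 in the authors' deposited value table.

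The 2 aquaporins differed widely from each other. Aqp8, a water channel of the apical membrane of acinar cells, had a signal of 554 on WT and 1528 on Nrdc-cKO. Its difference was -0.22 (scanner error 0.20), and 48.3% of all measured genes had a lower difference. It stood at 0.07 with loess and at 0.27 in the authors' deposited value table.

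Aqp12, an aquaporin of intracellular membranes that is found almost only in pancreatic acinar cells, had the largest difference of the 10. Its only probe had a signal of 7088 on WT and 1122 on Nrdc-cKO, so it was lower before any scaling. Its level was 6.65 and 2.30, a difference of -4.34 (20.3-fold lower, scanner error 0.20). Of all measured genes, 0.131% had a lower difference, and of the 575 genes of like level, 0.348%. The value ranged from -4.34 to -2.45 over 12 other ways of processing and stayed past 4-fold in each.

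In the order of differences the gap from Aqp12 to Vipr1 was 1.84 and that from Vipr1 to Chrm3 was 1.35. Chrm3, Cckar and Itpr2 then followed each other by 0.03 and 0.13, less than the scanner error. Itpr3, Orai1 and Aqp8 lay as close together (-0.26, -0.26 and -0.22), and Chrm1 and Sctr were 0.09 apart. With the reported scaling the genes thus fell into groups whose members the scanner error does not separate, beside Vipr1 and Aqp12, which stood alone. The groups did not hold under every scaling. With quantile scaling Chrm3 stood at -1.22 and Cckar at -0.68, and with loess Itpr3 stood at 0.18 and Orai1 at -0.16.

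**Figure D2:**
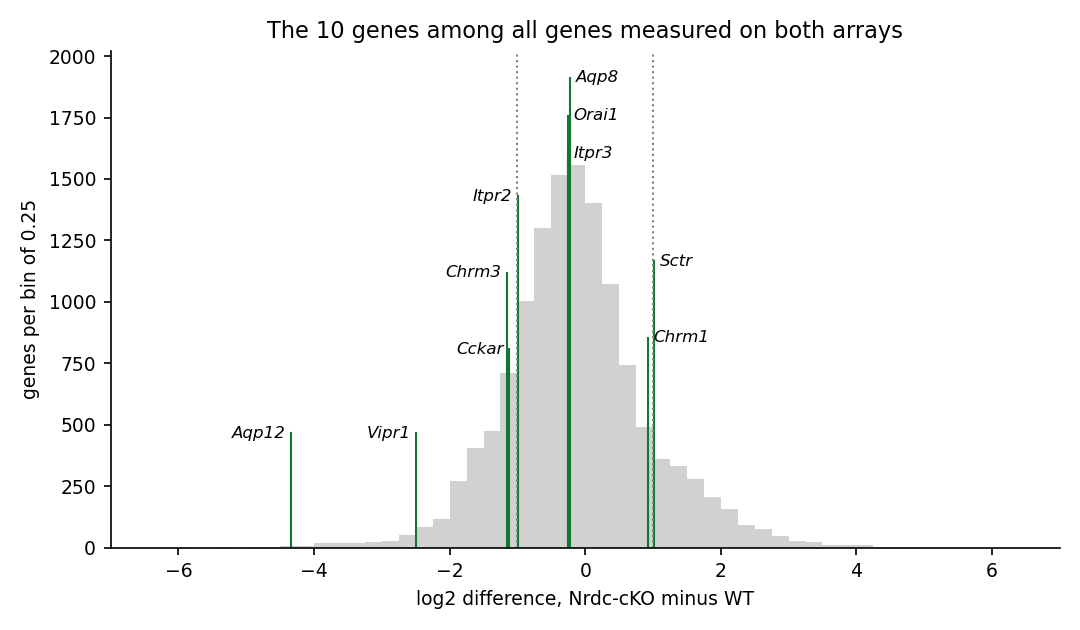
Number of genes per bin of the log2 difference, Nrdc-cKO minus WT, over the 13001 genes measured on both arrays, with a line for each of the 10 genes (line height has no meaning) and dotted lines at 2-fold. Aqp12 (-4.34) and Vipr1 (-2.50) lie in the lower tail, while Itpr3, Orai1 and Aqp8 (-0.26, -0.26 and -0.22) lie at the centre.

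The promoter windows of the 2 genes past 4-fold are shown because their RNA differed most. They come from RefSeq, build GRCm38.p6, and run from 250 bases before to 50 bases after the start of the gene, on the plus strand. The table held windows for 7 of the 10 genes. Capitals mark matches on either strand to CANNTG, the E-box bound by basic helix-loop-helix factors, and to TGGGAA. The acinar factor complex PTF1, which contains Ptf1a, is known to bind an E-box beside a TGGGAA-like box, and CACCTG and CATATG, also searched, are E-boxes and so overlap CANNTG. The Aqp12 window is chr1:93006084-93006383 and the Vipr1 window chr9:121642466-121642765.
Aqp12: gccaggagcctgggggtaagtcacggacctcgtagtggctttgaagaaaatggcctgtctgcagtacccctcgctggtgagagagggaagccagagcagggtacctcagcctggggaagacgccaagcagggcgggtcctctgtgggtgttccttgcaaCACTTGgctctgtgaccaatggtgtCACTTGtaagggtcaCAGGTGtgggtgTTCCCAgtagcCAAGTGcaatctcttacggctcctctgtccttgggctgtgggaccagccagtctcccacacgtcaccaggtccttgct
Vipr1: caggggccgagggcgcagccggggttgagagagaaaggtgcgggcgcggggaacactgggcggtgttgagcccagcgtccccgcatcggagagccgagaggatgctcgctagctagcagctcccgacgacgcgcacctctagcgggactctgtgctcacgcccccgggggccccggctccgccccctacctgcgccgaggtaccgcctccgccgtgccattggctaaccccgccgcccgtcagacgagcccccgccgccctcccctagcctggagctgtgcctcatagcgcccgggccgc

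The Aqp12 window held 4 matches to CANNTG, 1 of them also a match to CACCTG on the other strand, and 1 match to TGGGAA on the other strand, 6 bases downstream of that CACCTG match. The Vipr1 window held none of the 4 motifs, and 73.7% of its bases were G or C, against 59% for Aqp12 and a median of 52.7% over all windows. Of 32851 promoter windows of the same length, 72.3% held CANNTG, 20.2% CACCTG, 3.91% CATATG and 25.6% TGGGAA, and 5.27% held both CACCTG and TGGGAA. The last share was counted after the Aqp12 window had been read. Of the 7 windows, 6 held CANNTG, 2 CACCTG (Aqp12 and Itpr2), 2 TGGGAA (Aqp12 and Aqp8) and 0 CATATG. A match describes these letters and shows no binding.

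The differences of the 10 genes were set beside 17 acinar markers, enzymes, granule proteins and transcription factors of the same cells. By 2-fold or more, 16 of these markers were lower and 0 were higher, against 17.3% and 12.8% of all measured genes. Their median was -1.88, and their summed level was 61457 times the 75th percentile on WT and 14566 times on Nrdc-cKO. Without scaling their median was -0.20, and with spike-in scaling it was 0.01. The lower values are thus relative to the array and need not mean a loss of acinar RNA. In whole tissue, fewer acinar cells and less RNA per acinar cell cannot be told apart either. Of the 10 genes, 8 had a difference above the marker median of -1.88. Aqp12 had a lower difference than 16 of the 17 markers, and Vipr1 than 11 of them. Cckar, Chrm3 and Itpr2 stood above 16 of the 17, the exception being the transcription factor Nr5a2 (-0.65), and Itpr3, Orai1, Aqp8, Chrm1 and Sctr stood above all 17. Most of the markers are among the brightest probes. Cpa1, Cela2a, Cela3b, Ctrb1 and Prss2 had nearly equal signals on both arrays, with unscaled log2 differences of -0.01 to -0.06. Their scaled differences of -1.69 to -1.74 thus mostly repeat the offset of 1.68 between the 75th percentiles of the arrays. The distance between the 10 genes and the markers also differed between scalings. The marker median was -0.40 with quantile scaling and -0.68 with loess, where the median of the 10 genes was -0.47 and -0.39.

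The upstream and downstream genes of the same pathways, from 8 lists of 137 genes, gave no common direction. Both arrays measured 100 of them, of which 15 were higher and 17 lower by 2-fold or more. Their median was -0.15, and another 21 passed background in Nrdc-cKO alone. Beside all measured genes (12.8% higher and 17.3% lower), these shares are no result about the pathways.

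Among other receptors of secretory cells, 10 of 20 were measured, with 3 higher and 3 lower and a median of -0.48. Grpr, the receptor for gastrin-releasing peptide, had a level of 0.78 on WT and -1.60 on Nrdc-cKO, a difference of -2.38. The nucleotide receptors P2ry2 (2.36) and P2rx7 (2.31) were higher. The remaining muscarinic receptors Chrm2, Chrm4 and Chrm5, named after their values were seen, were not well above background on either array.

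Of the ligands and the genes of acetylcholine supply, 2 of 9 were measured on both arrays. The secretin gene Sct had a level of -1.34 on WT and 0.12 on Nrdc-cKO, a difference of 1.46, and gastrin, Gast, stood at -2.54. Vip, the ligand of the receptor encoded by Vipr1, passed background in Nrdc-cKO alone and was at least 8.63-fold higher. For both of these receptors the RNA of the ligand was thus higher on the Nrdc-cKO array, while Sctr was higher and Vipr1 lower. Peptides reach the gland from gut and nerve, so RNA in the pancreas measures only local supply. Nerve markers were higher for 2 of 2 measured genes, and the other 4 passed background in Nrdc-cKO alone, of which 1 was at least 2-fold higher by its bound. Their part in the value of Vip was not tested.

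In the Gq and phospholipase C arm, 5 of 16 measured genes were lower by 2-fold or more and 0 were higher (median -0.47). This balance depended on the scaling, with 1 lower and 11 higher under spike-in scaling, 1 and 10 without scaling, and 2 and 1 in the authors' deposited value table. Itpka, a kinase that removes inositol trisphosphate by phosphorylating it, stood at -2.94 and was lower before scaling too, with a log2 difference of -1.26. The G protein subunits of the Gq family Gna15 and Gna14 stood at -1.52 and -1.39. The protein kinase Prkd1 was below background in WT and at least 2.54-fold higher in Nrdc-cKO. In the Gs and cyclic AMP arm, 2 of 14 were higher and 1 lower, with a median of -0.09. The adenylyl cyclase Adcy7 (2.63) and the protein kinase A regulatory subunit Prkar2b (2.48) were higher, and the adenylyl cyclase Adcy6 (-1.01) was lower.

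Of the other genes that release, admit or remove calcium, 22 were measured, with 5 higher, 4 lower and a median of -0.03. The lowest was Atp2c2, a calcium and manganese pump of the secretory pathway, with a level of 3.84 on WT and -0.28 on Nrdc-cKO. Its difference of -4.12 was close to that of Aqp12, and 0.154% of all measured genes had a lower one. The calcium channel Trpv6 (2.07) and Cd38, which makes a calcium-mobilising messenger (1.88), were higher. The list's members next to those named above, given after their values were seen, went both ways, with Itpr1, the inositol trisphosphate receptor best known from neurons, at 1.24, the sensor of store content Stim1 at -0.98 over 3 probes, and the Orai1 relative Orai2 at -1.22.

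Calcium effectors were measured for 18 of 18 genes, with 1 higher, 1 lower and a median of 0.12. The kinase subunit Camk2b stood at -2.51 and the calcineurin regulator Rcan1 at 1.90, while calmodulin Calm2 was at 0.98. Of 10 further aquaporins, 8 were measured, with 1 higher and 0 lower. This was Aqp5, a water channel of several exocrine glands, with a level of -0.88 on WT and 2.88 on Nrdc-cKO, a difference of 3.76, and 99.7% of all measured genes had a lower one. Aqp11 (-0.92) and Aqp9 (-0.88) lay within 2-fold. In acinar ion transport, 2 of 10 were higher and 2 lower. The sodium pump subunit Atp1b1 (1.93) and the calcium-activated potassium channel Kcnn4 (1.89) were higher, and the potassium channel subunit Kcne1 (-1.52) was lower.

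**Figure D3:**
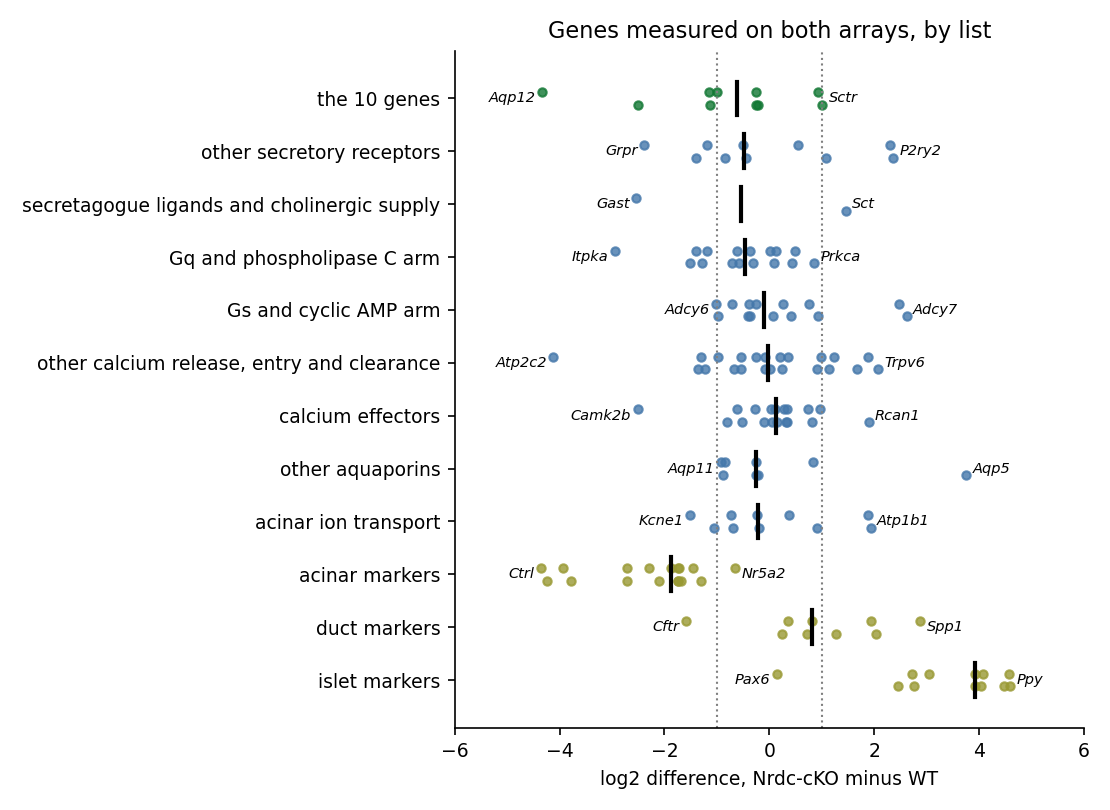
Log2 difference, Nrdc-cKO minus WT, of each gene measured on both arrays, for the 10 genes, 8 pathway lists and 3 marker lists. Points are genes, black bars are list medians, dotted lines are at 2-fold, and the lowest and highest gene of each list is named; the pathway medians lie between -0.54 and 0.12, against -1.88 for acinar markers and 3.93 for islet markers.

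Markers of the other cell types in the pancreas differed as well. Islet markers were at least 2-fold higher for 11 of 12 genes (median 3.93), fibroblast markers for 7 of 7 (2.13), macrophage markers for 6 of 7 (2.73) and smooth muscle markers for 3 of 4 measured (1.72). Their summed levels went from 382 to 2965, from 222 to 846, from 36.7 to 113 and from 17.4 to 54.5 times the 75th percentile. Of 7 adipocyte markers, 5 passed background in Nrdc-cKO alone, and each of the 5 had a bound past 2-fold, while of the 2 measured on both arrays 1 was higher (2.51) and 1 lower (-1.87). Genes that respond to tissue handling were higher for 6 of 7 (median 2.05), and endothelial markers for 1 of 5 (median 0.70). T cell markers were higher for 0 of 3 measured and lower for 1, Cd3e (-1.41), with a median of -0.59. A further 3 T cell markers passed background in Nrdc-cKO alone, 2 of them with a bound past 2-fold. Of 4 B cell markers, 3 passed background in Nrdc-cKO alone, each with a bound past 2-fold, and the one measured on both arrays stood at -0.39. Several of the 10 genes are also expressed in such cells, Chrm1 in neurons and Orai1 in immune cells among them. The part of these cells in the values of the 10 genes was not tested.

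**Figure D4:**
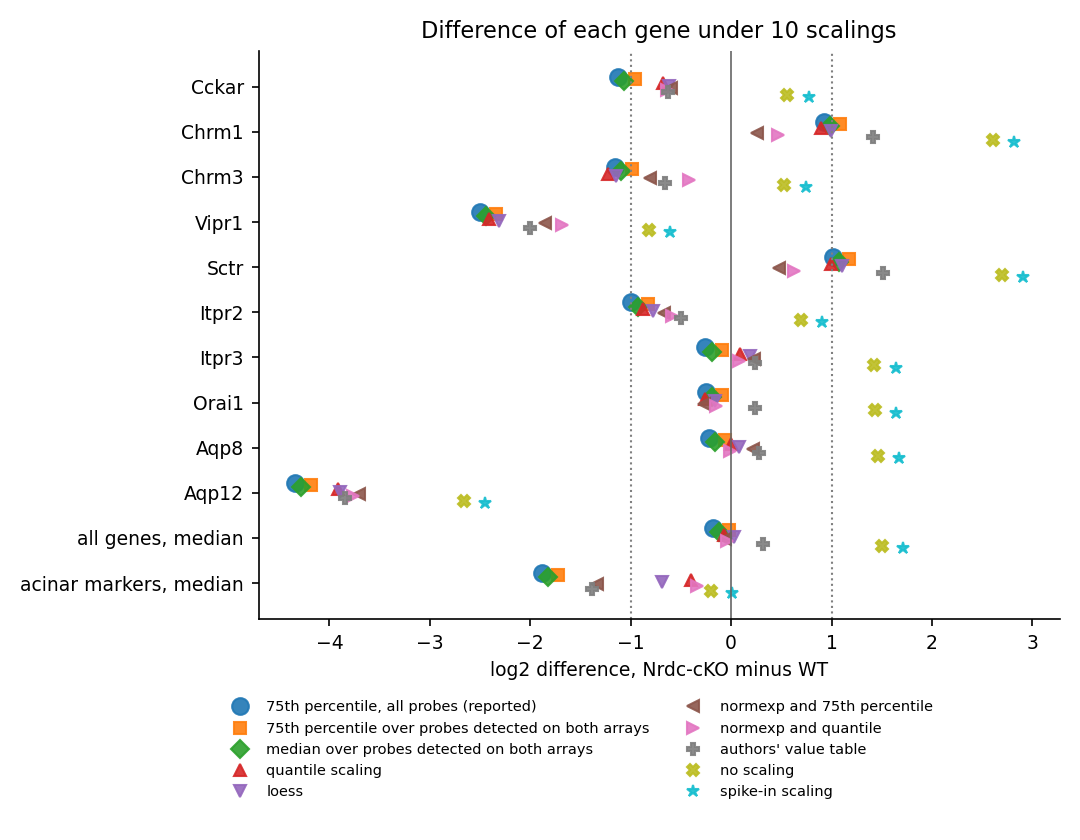
Log2 difference, Nrdc-cKO minus WT, of each of the 10 genes, of the median of all measured genes and of the acinar marker median, under 10 ways of scaling or background correction (symbols), with dotted lines at 2-fold. Aqp12 stays between -4.34 and -2.45 and Vipr1 between -2.50 and -0.60, while Itpr3, Orai1 and Aqp8 lie on both sides of 0 and all genes shift to the right with spike-in scaling.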

How the data were processed

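The deposited scanner files give linear processed intensities of spots, background-subtracted and detrended by Agilent Feature Extraction (version 12.0.3.1 per the file headers, 11.5.1.1 per the submitters' processing notes) and not normalized between arrays, with the software's error estimate and flags. The authors' deposited value table holds the same linear intensities, uncentred, times a constant of 4.37 (WT) or 1.92 (Nrdc-cKO), with medians of 42.5 and 66.0. The sources used here do not say how the constants were set.

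Spots flagged as outliers on either array were left out and no spot was saturated. Intensities were put on a log2 scale, spots of a probe averaged (56604 probes) and each array's 75th percentile subtracted. Detection required that a share of 0.5 or more of a probe's spots had the flag for signal well above background. The value of a gene is the mean difference over its probes detected on both arrays. Of 35885 probes with a RefSeq accession, 32993 matched a gene of GRCm38.p6. The array design names another build, so genes have no coordinates. Where a probe was detected on 1 array, its bound divides the bright level by the lowest detected level of the dim array, or by its own level there if that is higher. The procedure was also run on simulated arrays, both made from the WT array with its detection flags. That run cannot show whether the 75th percentile is a suitable scale for the WT and Nrdc-cKO arrays, whose detection differed.

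Alternatives used limma 3.58.1 in R 4.3.3 (quantile, loess, normexp with offset 50) and Python 3.11.15. Spike-in scaling used 8 Agilent control probes. Named pathway genes are the 3 with the largest absolute difference in each list and those with a bound of at least 2-fold; others are said to be chosen after their values were seen. The members and lists were chosen with earlier results of these data known. Protein sequences were not used here.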

Additional observations from a re-analysis of the deposited data

How the results depend on the processing

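No paired analysis was possible because there was 1 array for WT and 1 for Nrdc-cKO, and no replicate could be left out. Aqp12 stayed at least 2-fold lower in 12 of 12 other settings, Vipr1 in 11 of 12, Chrm3 in 5 of 11, Cckar in 5 of 12 and Itpr2 in 3 of 12, and Sctr stayed at least 2-fold higher in 8 of 11. Relative to a median of all genes of -0.18, spike-in scaling moved that median to 1.71, the authors' value table to 0.31, and no scaling, added after seeing the data, to 1.5. With spike-in scaling Cckar turned to 0.77, Chrm3 to 0.74 and the acinar marker median to 0.0119, and without scaling Cckar turned to 0.56 and Chrm3 to 0.53, because a constant was added to every gene.

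Of the 10 genes, those at least 2-fold higher (1 as reported) and lower (4) numbered 5 and 1 with spike-in scaling and also with no scaling, 2 and 2 in the authors' value table and with the 75th percentile over detected probes, and 0 and 2 with normexp followed by the 75th percentile or by quantile scaling. They numbered 0 and 3 with quantile scaling, 0 and 4 for bright probes, and 2 and 5 without a filter on dim probes. At 1.5-fold 2 were higher and 5 lower, and at 4-fold 0 were higher and 2 lower. No share of all measured genes is given for normexp, the 75th percentile over detected probes, bright probes, no filter or 1.5-fold. Whether those counts differ from all genes is therefore not known.

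Pathway genes at least 2-fold higher (15) and lower (17) numbered 80 and 2 with spike-in scaling, 72 and 2 with no scaling, 26 and 27 without a filter on dim probes, 26 and 7 in the authors' value table, 8 and 9 for bright probes, 25 and 31 at 1.5-fold and 6 and 5 at 4-fold. The lower count was 8 with normexp and the 75th percentile and 6 with normexp and quantile scaling. Of all measured genes, 79.8% were at least 2-fold higher with spike-in scaling, 72.6% with no scaling and 22.2% in the value table. No such share is given without a filter, for bright probes, for normexp or at 1.5-fold, so those counts are no result about the pathways. No count of genes detected on 1 array could be given without a filter or for bright probes. Signal over background limits Chrm1, Chrm3, Sctr, Orai1 and the dim probes of Itpr2 and Vipr1. For the settings other than a constant or a changed threshold, the cause was not tested.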
